A study of Mus musculus with 102 samples.

Results

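The subparaventricular zone (SPa) of the mouse hypothalamus was sampled in its ventral and its dorsal part, and the comparison of these parts rests on 4 arrays, 2 of SPa ventral and 2 of SPa dorsal, out of 102 arrays of 51 regions of the central nervous system. All 45037 probe sets other than the 64 control probe sets were compared, and probe sets that name 1 gene covered 18193 genes. The zone lies between the suprachiasmatic nucleus (SCN), the seat of the circadian clock, and the paraventricular nucleus (Pa), and it receives the densest output of the SCN. Lesion work assigns the daily rhythm of sleep and activity mainly to its ventral part and that of body temperature mainly to its dorsal part. Its neurons are in large part GABAergic, and SCN signals reach them as GABA and as peptides.

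Both groups came from Balb/c mice labelled male, 7 to 8 weeks old, and the labels give no transgene or drug. They had been kept in 12-h light and dark cycles and were sampled in light and dark or in constant darkness, and the labels do not say which applied to which array. Tissue was punched from frozen slices every 4 h over a day, and RNA of all 6 time points was pooled, so each value averages over the day and over many animals and carries no rhythm. Each array of a part is a pool of its own. For each probe set, the test takes the spread between the duplicate pools of all regions in the fit, not that of these 4 arrays alone. Values are log2 expression values, in which a difference of 1 is a doubling. They ran from 3.93 to 14.64 on the 4 arrays, with array medians between 7.40 and 7.42. Precision is limited by the number of arrays, since intensities give no counts.

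One library property separated the parts and went against the labels. *Xist*, the non-coding RNA of the inactive X chromosome, had a log2 value of 9.66 and 9.19 on the arrays labelled SPa dorsal and of 5.88 and 5.86 on those labelled SPa ventral. Only 4 other arrays were as high, those of the ventral tegmental area (VTA) at 9.46 and 9.24 and of the pineal at 8.83 and 9.91. The remaining 94 arrays lay between 5.57 and 6.02, which leaves no overlap, although every sample is labelled male. A second *Xist* probe set showed the same order, with 11.02 and 10.84 in SPa dorsal against 8.66 and 8.47 in SPa ventral, and the remaining one, the dimmest, was not called (difference -0.228, adjusted p = 0.369). The Y-linked gene *Kdm5d*, a histone demethylase, read 6.84 and 6.85 in SPa dorsal against 7.50 and 7.54 in SPa ventral, and the other 94 arrays spanned 6.34 to 8.11 with a median of 6.94, close to SPa dorsal. Its other probe sets were not called (differences 0.346 and 0.178). Of 9 probe sets of the Y-linked genes *Kdm5d*, *Uty* and *Eif2s3y*, 3 were called higher in SPa ventral and 0 in SPa dorsal. The shares of all probe sets were 1.95% and 2.87%. All 9 had a positive difference, that is, a lower mean in SPa dorsal. *Eif2s3y*, a translation factor, differed by 0.146 (adjusted p = 0.897) at its brighter probe set. The VTA arrays, also high in *Xist*, read 6.91 and 6.75 for *Kdm5d*. The pineal arrays, although high in *Xist*, read 8.17 and 7.90 for *Kdm5d* and 8.77 and 8.10 for *Eif2s3y*. The Y-linked values thus differed among the regions high in *Xist*, and the sex of the pools was not tested. In the sample table of the study SPa dorsal, VTA and pineal carry identifiers of one series, whereas SPa ventral belongs to another series, although the pools of all of these regions are dated to the same day. The region and this property of the pools cannot be told apart, and its part in the results below was not tested. In the comparison below, 77 of the 1127 probe sets on the X chromosome were called (6.83%), against 5.28% on the autosomes. Of these X calls, 43 were higher in SPa ventral and 34 in SPa dorsal, against 701 and 1074 on the autosomes.

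**Figure D1:**
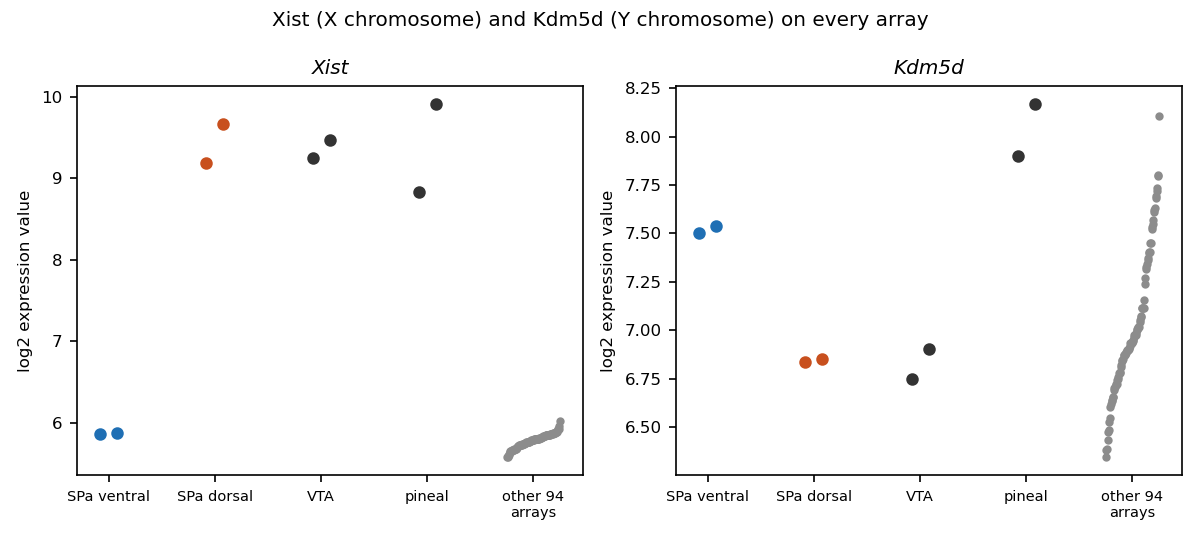
Log2 expression value of *Xist* (left) and *Kdm5d* (right) on each of the 102 arrays, 1 point per array, with the 94 arrays of other regions drawn together in order of their value. *Xist* was high on the 2 arrays each of SPa dorsal, VTA and pineal, and *Kdm5d* in SPa dorsal lay below SPa ventral and within the range of the other arrays.

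The control probe sets along the β-actin mRNA differed as well. The 3′ minus 5′ difference was 1.91 and 1.65 in SPa dorsal and 1.41 and 1.53 in SPa ventral, and the other 98 arrays lay between 0.313 and 1.55 with a median of 0.928. The 5′ control itself read 11.49 and 11.74 in SPa dorsal, below every other array. The 18S rRNA control was 11.45 on the first SPa dorsal array and 9.56 on the second, against 9.12 and 9.02 in SPa ventral. The Gapdh controls ran the other way, with 3′ minus 5′ differences of 0.264 and 0.129 in SPa ventral against 0.070 and 0.061 in SPa dorsal, and -0.25 to 0.239 on the other 98 arrays. Both SPa dorsal arrays thus stood at the edge of the series for β-actin, the first of them for 18S rRNA and the first SPa ventral array for Gapdh, and the part of these properties in the results was not tested.

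A total of 2173 of 45037 probe sets (4.82%) differed between the parts at an adjusted p below 0.05, in a limma fit over the 96 arrays of 48 regions with p values adjusted by Benjamini-Hochberg across the whole array. At 49.9% of all probe sets both arrays of one part lay beyond both of the other, so a lack of overlap alone is no result here. Of these, 879 (1.95%) were higher in SPa ventral and named 606 genes, and 1294 (2.87%) were higher in SPa dorsal and named 929 genes. A log2 difference of at least 1 was reached by 285 probe sets (0.633%), 135 higher in SPa ventral and 150 higher in SPa dorsal. The median difference over all probe sets was 0.0023. Replicates were close, with a median absolute difference between the arrays of a part of 0.101 in SPa ventral and 0.0823 in SPa dorsal, the latter the smallest of the 48 regions. The number of calls depended on every array: leaving out 1 of the 4 gave between 880 and 1684 calls.

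**Figure D2:**
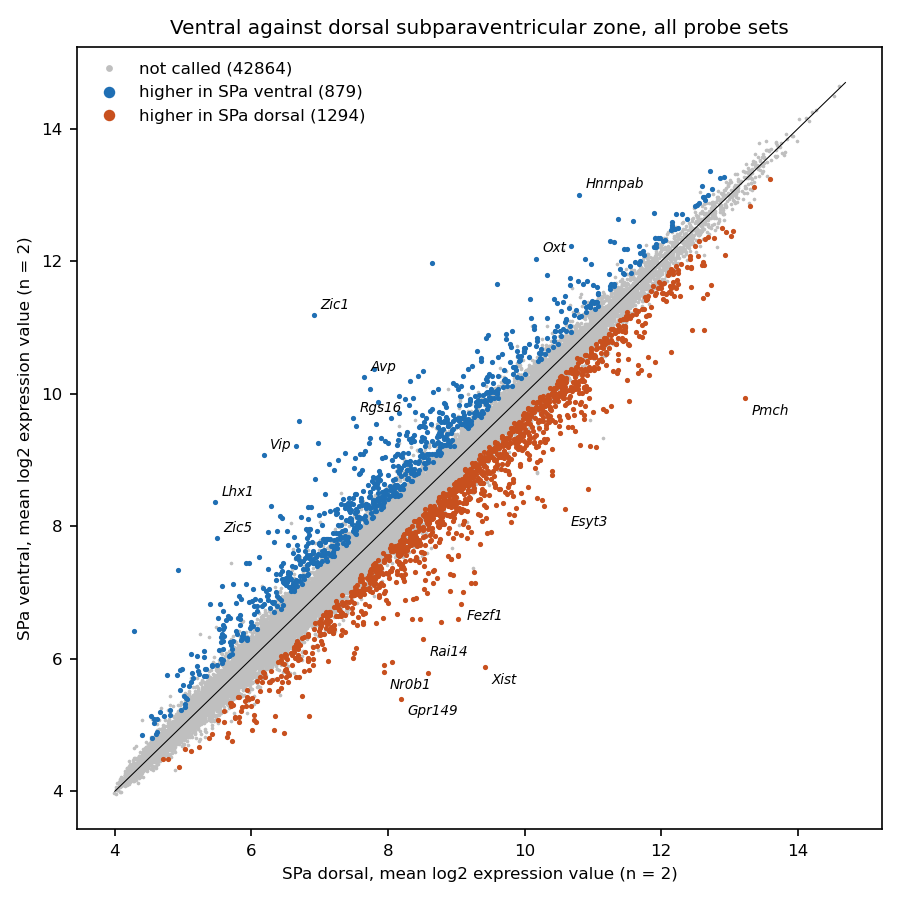
Mean log2 expression value of each probe set in SPa dorsal (horizontal) and SPa ventral (vertical), 2 arrays each, with called probe sets in colour and the line of equality. The 879 blue and 1294 orange probe sets flank the line, and *Zic1*, *Vip*, *Lhx1* and *Avp* lie far above it, *Pmch* and *Xist* far below it.

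The called probe sets pointed to different neighbours. Among the 879 higher in SPa ventral, the SCN was the highest of the 10 other hypothalamic regions at 227 (25.8%), against 10.6% of all probe sets, and the ventromedial nucleus (VMH) at 13 (1.48%). Among the 1294 higher in SPa dorsal, the VMH was the highest at 380 (29.4%), against 11.4% of all probe sets, and the SCN at 171 (13.2%, against 10.6%). Other regions also exceeded their share. The dorsomedial nucleus did so on both sides, with 16.04% on the ventral and 13.99% on the dorsal side against 10.48%. The lateral hypothalamus did so on the ventral side, with 10.92% against 5.51%. SPa dorsal was the highest of all 48 regions at 215 of the 1294 (16.62%, against 1.94% of all probe sets) and the lowest at 121 of the 879 (13.77%, against 1.70%). SPa ventral was the highest at 45 of the 879 (5.12%, against 1.58%) and the lowest at 35 of the 1294 (2.70%, against 1.17%). These are counts of region means, with no test.

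Genes known from the SCN made up the clearest group on the ventral side. Of 15 listed, 14 were measured, 13 were higher in SPa ventral and 0 in SPa dorsal, against 1.95% and 2.87% of all probe sets, and their median difference was 1.46. Here and below, list genes stand by their brightest probe set. The share of all probe sets also covers dim ones and those naming no gene, so the bases are unlike. The exception was *Npy6r*, a receptor of the neuropeptide Y family, with mean values of 6.53 in SPa ventral and 6.08 in SPa dorsal (adjusted p = 0.143). At the brightest probe set of each gene the SCN itself was above SPa ventral in 13 of the 14, by a median of 1.41 over all, and *Zfhx3* was level there (10.18 in the SCN and 10.19 in SPa ventral). The SCN was above SPa dorsal in all 14. In bulk tissue, more cells of a type, more RNA per cell and tissue of a neighbouring nucleus within the punch cannot be told apart. Oligodendrocyte genes, described below, were also higher in SPa ventral and in the SCN, and their part was not tested.

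*Vip*, the peptide by which neurons of the SCN core synchronise the clock, had a log2 value of 8.80 and 9.36 in SPa ventral and of 6.36 and 6.00 in SPa dorsal. The ventral arrays were both above the dorsal ones, a difference of 2.90 ± 0.328 (SE, n = 2 arrays each, adjusted p = 2.33e-09), or 7.45-fold. This SE, like those below, comes from the fit over all regions, and with the 4 subparaventricular arrays alone it was 0.181. The SCN read 13.74, and the remaining hypothalamic regions stayed below SPa ventral, with the medial preoptic area (MPA) next at 7.28. *Avp*, vasopressin, read 10.49 and 10.02 in SPa ventral and 7.54 and 7.76 in SPa dorsal (difference 2.60 ± 0.207, adjusted p = 2.7e-14). Unlike *Vip*, it was higher in 6 other hypothalamic regions than in SPa ventral, up to 14.38 in the supraoptic nucleus. *Grp*, gastrin-releasing peptide of the SCN core, differed by 1.38 ± 0.247 (adjusted p = 8.92e-05).

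The transcription factors and signalling genes of the list moved the same way. *Lhx1*, which maintains the coupling of SCN neurons, had values of 8.55 and 8.19 in SPa ventral against 5.50 and 5.44 in SPa dorsal, a difference of 2.90 ± 0.227 (adjusted p = 1.58e-14), at the probe set that differed most. Its brighter probe set gave 1.55 ± 0.155. *Zfhx3*, a regulator of SCN peptides, read 9.45 and 9.05 against 6.78 and 7.17, and the SCN read 10.23 at this probe set. All 6 of its probe sets were called in this direction. *Rgs16*, which tunes G protein signalling in the SCN, read 9.86 and 9.40 against 7.52 and 7.46 (difference 2.14 ± 0.175, adjusted p = 6.82e-14). The difference of *Six6*, needed for SCN formation, was 1.42, and that of *Rorb*, a nuclear receptor, was 1.83. The smallest called difference of the list was that of *Prok2* at 0.48 (adjusted p = 0.0136), which missed the threshold without the first SPa ventral array (adjusted p = 0.212), without the first SPa dorsal array (0.116), without the second (0.0975) and within the 24 hypothalamic arrays (0.0808).

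Ligands and receptors that carry SCN output followed in part. Of 12 measured ligands, 6 were higher in SPa ventral (*Vip*, *Avp*, *Grp*, *Penk*, *Tgfa*, *Prok2*) and 1, *Adcyap1*, in SPa dorsal. Of 18 measured receptors, 4 were higher in SPa ventral and 2 in SPa dorsal, and 12 were not called. The called shares of ligands and receptors were 58.33% and 33.33%, against 4.82% of all probe sets. *Prokr2*, the receptor of prokineticin 2, read 8.53 and 8.09 in SPa ventral against 6.24 and 6.34 in SPa dorsal, a difference of 2.02 ± 0.237 (adjusted p = 6.86e-09), which put SPa ventral at rank 3 of 48 regions. *Vipr2*, the VIP receptor of SCN neurons, read 8.53 and 8.32 against 7.44 and 7.42 (difference 0.99 ± 0.121, adjusted p = 1.76e-08). *Cckar*, a cholecystokinin receptor, differed by 1.54, and *Cckbr*, the other cholecystokinin receptor, by -0.996, so the pair had opposite signs. *Grpr* (0.459) was higher in SPa ventral and *Sstr1* (-0.753) in SPa dorsal. The calls of *Tgfa* and *Sstr1* were lost when any 1 of the 4 arrays was left out (adjusted p = 0.137 to 0.253) and that of *Grpr* when any but the second SPa dorsal array was (adjusted p = 0.0535 to 0.125). Within the 24 hypothalamic arrays *Sstr1* and *Grpr* were not called either (adjusted p = 0.139 and 0.0706).

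**Figure D3:**
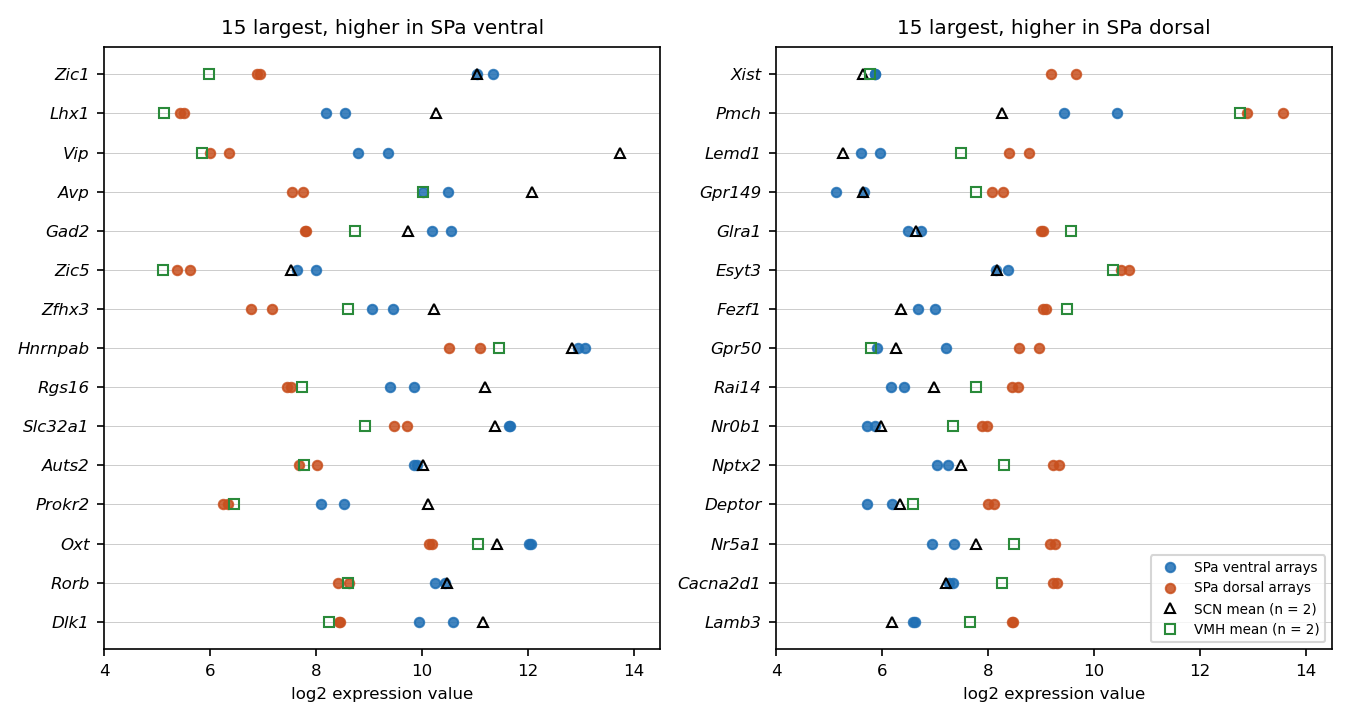
Log2 expression values of the 15 genes with the largest called differences in each direction, 1 point per array of SPa ventral (blue) and SPa dorsal (orange), with the mean of the SCN (triangles) and of the VMH (squares). The SCN lies on the ventral side for most genes of the left panel and the VMH on the dorsal side for most genes of the right panel.

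Of the 15 genes with the largest differences on the ventral side, the SCN was the highest of the 10 other hypothalamic regions for 10. The leading gene was *Zic1*, a zinc finger factor of the midline, with 11.34 and 11.04 in SPa ventral and 6.94 and 6.89 in SPa dorsal (difference 4.28 ± 0.506, adjusted p = 7.98e-09, 19.4-fold) at the probe set that differed most. Its brighter probe set gave 12.20 and 11.74 against 8.83 and 8.46, a smaller difference of 3.32 ± 0.446. It was also high in SCN (11.04), MPA (10.94), the supraoptic nucleus (10.30) and Pa (10.26), and low in VMH (5.99). Its relative *Zic5* read 8.00 and 7.64 against 5.62 and 5.37. The rest of the 15 were *Gad2*, *Slc32a1*, *Prokr2*, *Rorb*, *Oxt*, *Dlk1*, *Hnrnpab* and *Auts2* besides those above. For *Hnrnpab*, an RNA-binding protein, 1 of 7 probe sets was called, and SPa dorsal had rank 45 of 48 regions there. *Auts2*, a gene of neuronal development, had SPa dorsal at rank 47, and 3 of its 5 probe sets were called. Against the mean of the other hypothalamic regions, *Hnrnpab* was at -1.59 in SPa dorsal (adjusted p = 1.17e-06) and at 0.616 in SPa ventral (adjusted p = 0.0624).

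Short motifs of the clock and of nuclear receptors were looked up in the promoters of the leading genes. Those of *Avp*, *Zic1* and *Oxt* are given, the only matched genes of either side that held a motif searched. That of *Nr0b1*, a leading gene of SPa dorsal described below, is given besides and held none. The promoters run from 250 bases before to 50 after the transcription start, from RefSeq on GRCm38.p6, and 24 of the 30 leading genes of both directions were matched. *Avp* lies at chr2:130582539-130582838 (minus strand) and *Oxt* at chr2:130575919-130576218 (plus strand), neighbouring genes that face each other. *Zic1* lies at chr9:91365719-91366018 (minus strand) and *Nr0b1* at chrX:86191525-86191824 (plus strand). Capitals mark the E-box CACGTG, bound by the clock proteins CLOCK and BMAL1, in *Avp* and *Zic1*, and the nuclear receptor half-site AAGGTCA, read on the opposite strand as TGACCTT, in *Oxt*.
Avp: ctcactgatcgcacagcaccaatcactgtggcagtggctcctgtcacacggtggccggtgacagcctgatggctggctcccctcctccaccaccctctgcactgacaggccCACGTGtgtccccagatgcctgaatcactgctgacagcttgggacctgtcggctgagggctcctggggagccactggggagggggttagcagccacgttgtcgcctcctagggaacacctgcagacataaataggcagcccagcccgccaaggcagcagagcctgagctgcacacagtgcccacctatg
Zic1: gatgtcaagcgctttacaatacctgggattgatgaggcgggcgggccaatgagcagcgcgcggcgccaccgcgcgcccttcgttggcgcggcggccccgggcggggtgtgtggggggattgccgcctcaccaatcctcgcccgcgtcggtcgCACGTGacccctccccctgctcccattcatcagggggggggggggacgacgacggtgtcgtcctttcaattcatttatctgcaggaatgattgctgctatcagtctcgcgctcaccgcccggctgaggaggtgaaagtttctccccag
Oxt: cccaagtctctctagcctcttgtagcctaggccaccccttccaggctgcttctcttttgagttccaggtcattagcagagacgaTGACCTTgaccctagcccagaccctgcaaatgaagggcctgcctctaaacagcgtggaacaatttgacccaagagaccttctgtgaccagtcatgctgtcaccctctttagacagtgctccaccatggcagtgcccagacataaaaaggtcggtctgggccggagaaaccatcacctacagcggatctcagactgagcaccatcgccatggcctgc
Nr0b1: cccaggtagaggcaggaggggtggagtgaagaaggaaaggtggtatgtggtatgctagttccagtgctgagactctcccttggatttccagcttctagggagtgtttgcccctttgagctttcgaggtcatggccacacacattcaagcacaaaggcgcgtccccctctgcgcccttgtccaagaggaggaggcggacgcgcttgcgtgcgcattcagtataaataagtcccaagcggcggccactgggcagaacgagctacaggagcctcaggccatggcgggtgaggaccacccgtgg
Searched on both strands, CACGTG was found in the promoters of 2 of the 14 genes on the ventral side that were matched and of 0 of the 10 on the dorsal side, and 7.15% of all 32851 promoters of this length hold it. AAGGTCA was found in 1 of 14 and 0 of 10, against 4.72% of all. TGACGTCA, the cyclic AMP response element, was found in 0 of both, against 1.79% of all. The motifs found do not overlap one another, and a match is a match of letters only.

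Most GABAergic genes were higher in SPa ventral. Of 11 listed, 9 were measured, 7 were higher in SPa ventral and 0 in SPa dorsal, against 1.95% and 2.87% of all probe sets. Their median difference was 1.40. Their median rank of 48 regions was 5 in SPa ventral and 29 in SPa dorsal. Although the zone is described above as largely GABAergic, SPa dorsal did not stand out for them. *Slc32a1*, the vesicular GABA transporter, had log2 values of 11.65 and 11.66 in SPa ventral and of 9.48 and 9.72 in SPa dorsal (difference 2.05 ± 0.258, adjusted p = 4.05e-08), ranks 3 and 40 of 48 regions, and it was called at 1 of its 4 probe sets. *Gad2*, a GABA-synthesising enzyme, read 12.18 and 12.29 against 10.59 and 10.76 at its brighter probe set (difference 1.56 ± 0.228), and *Gad1*, the other such enzyme, differed by 1.26 ± 0.249. At the other *Gad2* probe set SPa dorsal had rank 45 of 48 regions. The factors *Dlx1*, *Dlx2*, *Dlx5* and *Dlx6*, which specify forebrain GABAergic neurons, differed by 1.37, 1.64, 1.40 and 1.74. *Lhx6* (0.302, adjusted p = 0.562) and *Dlx6os1* (0.477, adjusted p = 0.064) were not called. In contrast to the SCN genes, 8 of these 9 were higher in SPa ventral than in the SCN, by a median of 0.638, as region means and with no test.

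*Slc17a6*, the vesicular glutamate transporter of hypothalamic neurons, went the other way. It read 10.95 and 10.99 in SPa ventral and 12.41 and 12.49 in SPa dorsal, a difference of -1.48 ± 0.254 (adjusted p = 4.47e-05), which put SPa dorsal at rank 4 of 48 regions. The cortical transporter *Slc17a7* had mean values of 6.88 and 6.85 and was not called (adjusted p = 0.985). Of the 11 genes of monoamine and acetylcholine transmission, 0 were called by limma and 1 had an unadjusted p below 0.05, with differences from -0.324 to 0.638.

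Of 7 measured genes known from the paraventricular nucleus, 3 were higher in SPa ventral and 0 in SPa dorsal (42.86% called, against 4.82% of all probe sets). *Oxt*, oxytocin, read 12.02 and 12.06 in SPa ventral and 10.19 and 10.14 in SPa dorsal (difference 1.87 ± 0.187, adjusted p = 5.67e-11), against 14.56 in Pa. *Trh*, thyrotropin-releasing hormone, read 10.08 and 9.36 against 8.08 and 8.25 (difference 1.56 ± 0.16). *Otp*, a factor of neuroendocrine neurons, read 11.17 and 10.62 against 9.53 and 9.40 (difference 1.42 ± 0.166). The median difference over the 7 was 0.681. The releasing hormone *Crh* and the factors *Sim1*, *Pou3f2* and *Arnt2* had differences of 0.681, 0.227, 0.275 and -0.017 and were not called. Pa was above SPa ventral at all 7 genes, by a median of 0.564.

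Genes known from the VMH formed the clearest group on the dorsal side. Of 10 listed, 9 were measured, 8 were higher in SPa dorsal and 0 in SPa ventral, against 2.87% and 1.95% of all probe sets. Their median difference was -1.51. In 6 of the 9 SPa dorsal was even above the VMH itself, by a median of 0.345 over all 9, and in SPa ventral all 9 were below the VMH. As for the SCN genes, expression in the zone itself and VMH tissue within the punch cannot be told apart. These genes are thus not shown to be a trait of the dorsal zone. The exception to the calls was *Sox14*, with mean values of 8.27 in SPa ventral and 8.47 in SPa dorsal (adjusted p = 0.431). *Nr5a1* and *Nr0b1* were among the marker candidates that the study had chosen for SPa dorsal on these samples, so for them the direction is not independent evidence. Of those candidates *Fhad1* was also higher in SPa dorsal (difference -1.70 ± 0.168), and the candidates for SPa ventral were not called. *Ubr1*, a ubiquitin ligase, read 7.72 and 7.51 in SPa ventral against 7.27 and 7.17 in SPa dorsal (adjusted p = 0.0638) at the probe set the study chose and differed by -0.052 at its brightest one. The other candidate, annotated as *Sdr9c7*, read 6.54 and 5.79 against 5.72 and 5.70 (adjusted p = 0.0557). SPa ventral was the highest of 48 regions at both probe sets, which the study had chosen for that on these samples, so the rank is no separate evidence.

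*Nr5a1*, steroidogenic factor 1, which defines VMH neurons, had a log2 value of 6.95 and 7.35 in SPa ventral and of 9.18 and 9.26 in SPa dorsal. The difference was -2.07 ± 0.125 (adjusted p = 4.9e-19), the level in SPa dorsal was the highest of 48 regions, and the VMH read 8.49. Its dimmer probe set, with means of 6.45 and 6.36, was not called (adjusted p = 0.787). *Nr0b1*, the partner DAX1, read 5.72 and 5.87 against 7.99 and 7.89 (difference -2.14 ± 0.12, adjusted p = 2.44e-20), with 7.34 in the VMH. The promoter of this gene printed above held none of the motifs searched. *Fezf1*, a zinc finger factor needed for VMH formation, read 6.68 and 6.99 against 9.09 and 9.05 (difference -2.23 ± 0.15, adjusted p = 4.48e-17), and here the VMH was higher at 9.49. SPa ventral had rank 3 of 48 regions for *Fezf1* and rank 4 for *Nr5a1*, which places it above most of the brain for both. *Nptx2*, *Cbln1*, *Adcyap1*, *Gda* and *Vgll2* differed by -2.14, -1.51, -1.18, -1.08 and -0.607.

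Of the 15 genes with the largest differences on the dorsal side, the VMH was the highest of the other hypothalamic regions for 8. The median eminence was the highest for 3 and the arcuate nucleus for 2. Among the 15, 8 had their highest level of all 48 regions in SPa dorsal, *Xist* among them. *Gpr149*, an orphan receptor, read 5.13 and 5.67 in SPa ventral and 8.29 and 8.09 in SPa dorsal (difference -2.79 ± 0.131, adjusted p = 9.24e-24), with 7.79 in the VMH and at most 5.82 in the other 9 hypothalamic regions. *Lemd1* read 5.60 and 5.96 against 8.78 and 8.41 (difference -2.81 ± 0.182, adjusted p = 1.09e-17). *Glra1*, the adult glycine receptor subunit, read 6.73 and 6.49 against 9.05 and 9.01, below the 9.57 of the VMH. *Cacna2d1*, an auxiliary calcium channel subunit, was called at all 5 of its probe sets, with a difference of -1.96 at the largest. *Esyt3*, *Rai14*, *Deptor*, an inhibitor of mTOR, and *Lamb3*, a laminin chain, completed the group with differences of -2.33, -2.22, -2.11 and -1.86. *Gpr50*, a relative of the melatonin receptors, had an uneven pair in SPa ventral (5.90 and 7.21) against 8.58 and 8.97 in SPa dorsal (difference -2.22 ± 0.264). The median eminence (11.44) and the arcuate nucleus (10.52) were above SPa dorsal at this probe set, and the dorsomedial nucleus read 8.16.

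**Figure D4:**
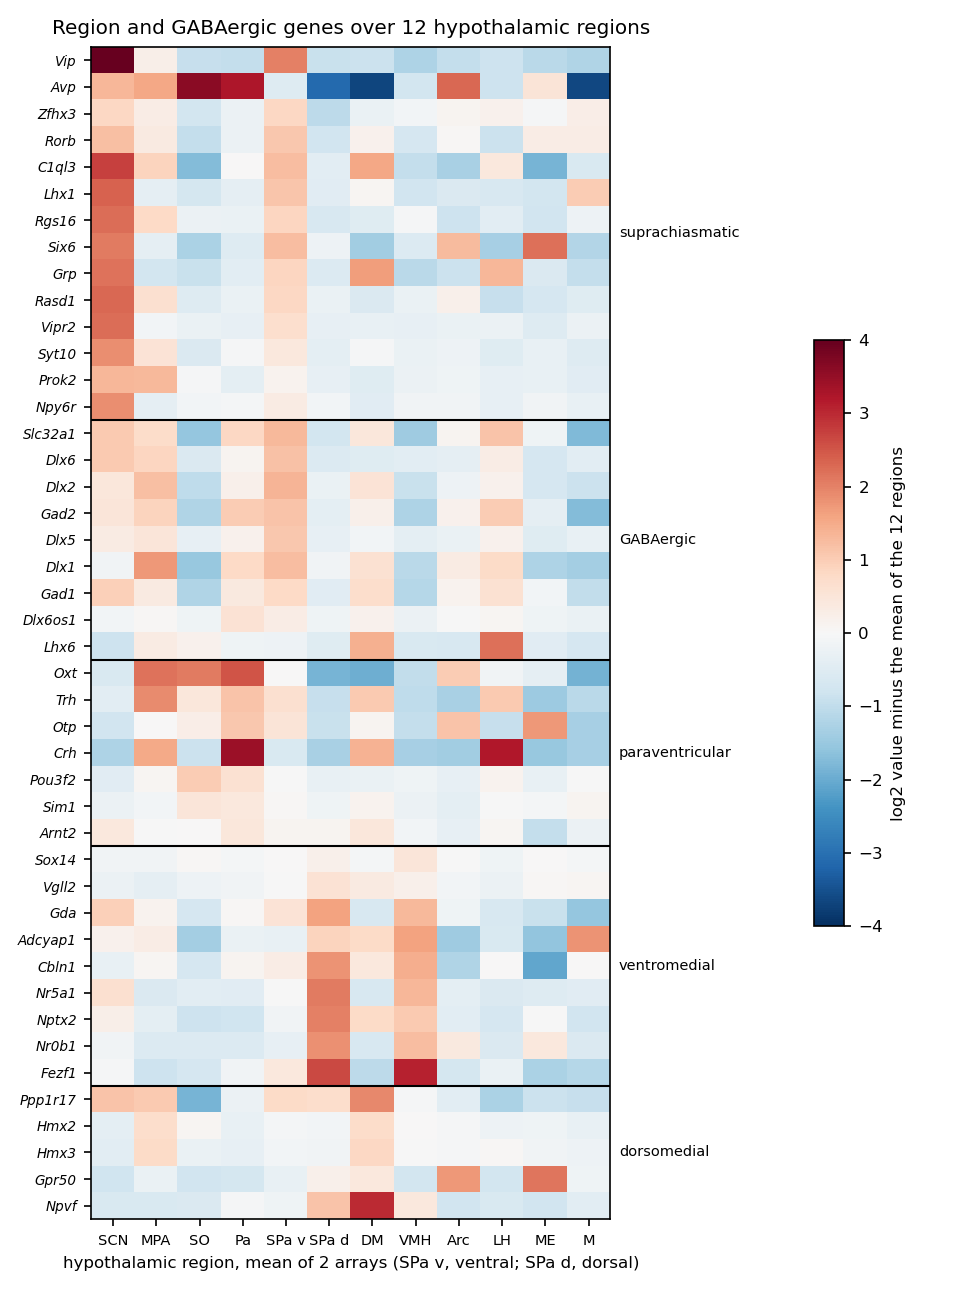
Log2 value of each measured gene of 5 lists in the 12 hypothalamic regions (means of 2 arrays), minus its mean over the 12, by list from top to bottom. SPa ventral shares warm colours with the SCN in the first list, and SPa dorsal with the VMH in the fourth.

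The largest peptide difference was that of *Pmch*, melanin-concentrating hormone, which promotes feeding and sleep. It read 10.44 and 9.44 in SPa ventral and 12.89 and 13.57 in SPa dorsal, a difference of -3.29 ± 0.377 (adjusted p = 3.48e-09), or 9.77-fold. Its replicates were farther apart than those of most genes. It was about as high in the dorsomedial nucleus (DM, 13.97), Pa (13.40) and VMH (12.76), while the lateral hypothalamus, where its neurons are best known, read 7.68. *Hcrt*, hypocretin, had mean values of 7.55 and 7.68 and was not called (adjusted p = 0.808). *Npvf*, a peptide of DM neurons, read 7.29 and 7.41 in SPa ventral against 8.48 and 8.87 in SPa dorsal (difference -1.33 ± 0.125, adjusted p = 8.48e-12), second to DM.

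Over 36 measured neuropeptide precursors, 10 were higher in SPa ventral and 5 in SPa dorsal (41.67% called, against 4.82% of all probe sets). On the ventral side *Nts*, neurotensin, read 9.63 and 8.88 against 7.84 and 7.61, and *Vgf*, a secreted precursor, read 12.11 and 11.98 against 10.77 and 11.00. *Penk*, the enkephalin precursor, differed by 1.34 and *Pnoc*, that of nociceptin, by 0.745. On the dorsal side *Cartpt* differed by -0.961 and *Pdyn*, the dynorphin precursor, by -0.63, and both missed the threshold without the first SPa ventral array (adjusted p = 0.0558 and 0.0904) or the second SPa dorsal array (0.0814 and 0.374). Among 57 measured neuropeptide receptors, 6 were called in each direction (21.05% called). Those higher in SPa dorsal included *Ntsr1*, the neurotensin receptor, by -0.783 and *Hcrtr1*, the hypocretin receptor, by -0.522. Thus *Nts* and *Ntsr1* were higher in opposite parts, a pair named after its values were seen. The ghrelin receptor *Ghsr* was higher in SPa ventral (6.10 and 6.13 against 5.31 and 5.32).

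The lists of the other neighbouring regions were mixed. The called shares of the DM, arcuate, lateral hypothalamic, preoptic and midline thalamic lists were 40%, 28.57%, 50%, 20% and 28.57%. The share of all probe sets was 4.82%. Of the 5 measured DM genes, 2 were higher in SPa dorsal (*Npvf*, *Gpr50*). Of the 7 arcuate genes, 1 was called in each direction (*Ghsr* and *Cartpt*), and of the 6 lateral hypothalamic genes *Nts* was higher in SPa ventral and *Pmch* and *Pdyn* in SPa dorsal. Of 5 measured steroid-sensitive preoptic genes only *Calcr*, the calcitonin receptor, was called, by 1.10 (adjusted p = 0.0371), and it was not called when any 1 of the 4 arrays was left out. The midline thalamic list had *Zic1* on one side and *Slc17a6* on the other, with its remaining 5 members not called.

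Of 77 measured hypothalamic transcription factors, 21 were higher in SPa ventral and 3 in SPa dorsal, with a median difference of 0.064. The called share was 31.17%, against 4.82% of all probe sets, and that of the nuclear receptors below was 19.44%. The 3 transcription factors higher in SPa dorsal were *Fezf1*, *Nr0b1* and *Nr5a1*. The 21 included *Zic1*, *Zic2*, *Zic4* and *Zic5*, all 4 *Dlx* genes above, *Six3* and *Six6*, *Vax1*, *Sox3*, *Foxd1*, *Onecut2* and *Pou2f2*. SPa ventral had rank 2 of 48 regions for *Vax1*, an eye and ventral forebrain factor (10.07 and 9.87 against 9.17 and 8.94), for *Sox3* (8.58 and 8.26 against 8.01 and 7.68) and for *Pou2f2* (8.21 and 7.91 against 7.60 and 7.52). Of 36 nuclear receptors, 2 were higher in SPa ventral (*Rorb*, *Esrrg*) and 5 in SPa dorsal, which besides *Nr5a1* and *Nr0b1* were *Rxrg* (-1.03), the glucocorticoid receptor *Nr3c1* (-0.772) and the mineralocorticoid receptor *Nr3c2* (-0.442).

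Of 21 measured clock genes, 6 were called at their brightest probe set (28.57%, against 4.82% of all probe sets, dim ones included), and 12 had an unadjusted p below 0.05. *Rorb* and *Hlf* were higher in SPa ventral and *Bhlhe41*, *Nfil3*, *Bhlhe40* and *Tef* in SPa dorsal, with called differences between -0.613 and 1.83. *Clock*, *Arntl*, *Per1*, *Per2*, *Cry1*, *Cry2* and *Dbp* had differences of -0.019, 0.188, 0.334, 0.192, 0.072, 0.027 and 0.008, and none of these was called. The count depended on the arrays and on the probe set: it fell to between 1 and 5 when an array was left out and was 10 with the probe set of the largest difference. Since RNA was pooled over the day, no value here speaks to rhythm. Of 12 immediate early genes, 3 were higher in SPa ventral and 0 in SPa dorsal (25% called, against 4.82% of all probe sets). *Fos* read 9.44 and 9.41 against 8.32 and 8.22 (difference 1.15 ± 0.273, adjusted p = 0.00441), *Dusp1* differed by 0.801 and *Btg2* by 0.525.

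More ion channel genes were called on the dorsal than on the ventral side, and the same held for all probe sets (2.87% against 1.95%). Of 84 potassium channel genes, 2 were higher in SPa ventral and 11 in SPa dorsal (15.48% called, against 4.82% of all probe sets). *Kcnip1*, which accompanies A-type channels, read 9.45 and 9.44 in SPa ventral against 10.75 and 10.72 in SPa dorsal (difference -1.29 ± 0.161, adjusted p = 3.35e-08). *Kcnab1*, *Kcnq3*, of the M current, and *Kcna5* differed by -1.24, -1.08 and -0.963, and *Kcnt2* (0.777) and *Kcnh8* (0.76) were the 2 on the ventral side. Of 35 sodium and calcium channel genes, 1 (*Cacng5*, 0.925) was higher in SPa ventral and 7 in SPa dorsal, led by *Cacna2d1* (-1.67 at its brightest probe set) and the T-type channel *Cacna1h* (-1.17). The called share was 22.86%. Without 1 array the potassium channel calls numbered 5 to 9 and those of sodium and calcium channels 4 to 6.

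Receptors for fast and slow transmitters were called in both directions. The called shares were 16.67% of GABA-A and glycine, 23.81% of glutamate and 14.63% of amine and acetylcholine receptor genes, against 4.82% of all probe sets. Of 18 GABA-A and glycine receptor genes, *Glra1* (-1.28 at its brightest probe set), *Gabra5* (-0.984) and *Gabrb1* (-0.516) were higher in SPa dorsal, and 0 in SPa ventral. The level of *Gabrb1* in SPa dorsal was the highest of 48 regions. Among 21 glutamate receptor genes, *Grik1*, a kainate receptor subunit, was higher in SPa ventral (7.47 and 7.43 against 5.99 and 5.95, difference 1.48 ± 0.165), as was *Grm3*, and *Grm5*, *Grm7* and *Grm8* were higher in SPa dorsal. Among 41 amine and acetylcholine receptor genes, the histamine receptors *Hrh1* (8.43 and 8.69 against 9.74 and 9.53) and *Hrh3* (9.23 and 9.31 against 10.07 and 10.05) were higher in SPa dorsal with *Chrna4* and *Chrm1*, and *Htr2c* and *Drd1* were higher in SPa ventral. For *Hrh1* SPa dorsal was the highest of 48 regions.

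Synapse organisers and adhesion genes differed by member. Of 34 synapse organisers, 3 were higher in SPa ventral and 7 in SPa dorsal (29.41% called, against 4.82% of all probe sets). *C1ql3* (10.10 and 9.73 against 8.15 and 8.36) and *C1ql2* (9.12 and 9.23 against 10.33 and 10.47), secreted proteins of one family, were higher in opposite parts. The difference of *C1ql3* missed the threshold without the first SPa dorsal array (adjusted p = 0.0864) or the first SPa ventral array (0.12). *Nptx1* and *Nptx2*, pentraxins that gather glutamate receptors, were both higher in SPa dorsal, and of the cerebellins *Cbln1* was higher in SPa dorsal and *Cbln2* in SPa ventral. Of 56 cadherins and protocadherins, 3 (5.36%) were called, *Cdh4*, *Pcdh15* and *Cdh22*, all higher in SPa dorsal, close to the 4.82% of all probe sets. Of 73 guidance genes, 4 were higher in SPa ventral, with *Nrp1* by 1.01, and 6 in SPa dorsal, with *Plxna2* by -1.05 (13.7% called).

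**Figure D5:**
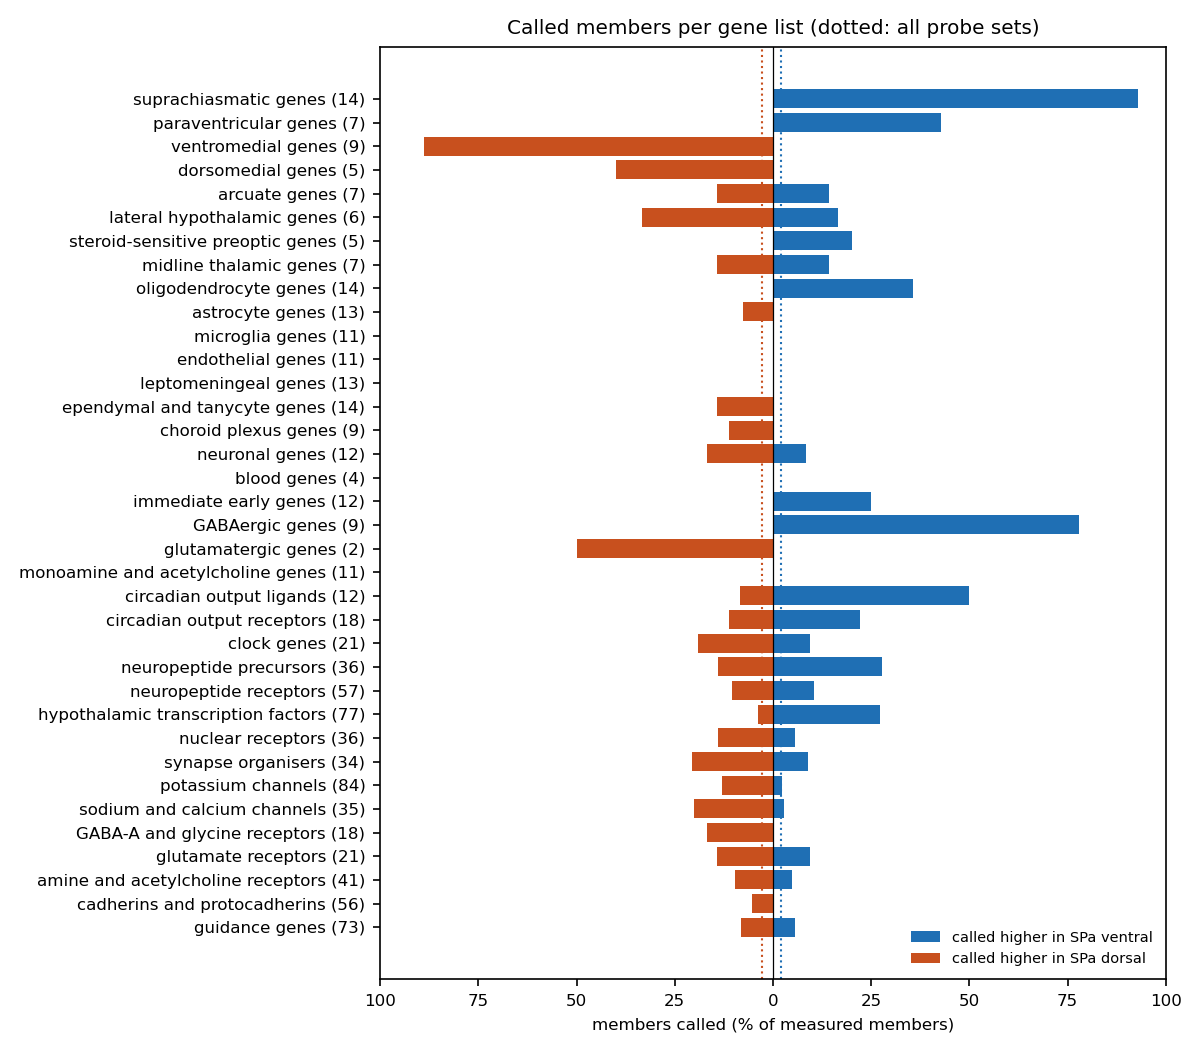
Share of the measured members of each gene list that were called higher in SPa ventral (right, blue) and in SPa dorsal (left, orange), in percent, with the number measured in parentheses and dotted lines at 1.95% and 2.87% of all probe sets. The suprachiasmatic and GABAergic lists extend farthest to the right and the ventromedial list farthest to the left.

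Markers of other cell types showed a difference in myelin. Of 14 measured oligodendrocyte genes, 5 were higher in SPa ventral (*Cldn11*, *Mobp*, *Mag*, *Ugt8a*, *Mbp*) and 0 in SPa dorsal, with a median difference of 0.487, and all 14 had a positive difference. The called share was 35.71%, against 4.82% of all probe sets. *Cldn11* read 8.13 and 8.21 against 7.15 and 6.84, and *Mbp*, at 13.37 and 13.35 against 12.73 and 12.72, stayed bright in both. The median rank of these genes was 37 of 48 in SPa ventral and 44.5 in SPa dorsal, and 1 to 2 of the 14 were called when 1 array was left out. Neuronal genes were called once in SPa ventral (*Syt1*, 0.34) and at *Nefl* (-0.552) and *Nefm* (-0.777) in SPa dorsal. Among 13 astrocyte genes *Slc1a2* was higher in SPa dorsal (-0.39), among 14 ependymal and tanycyte genes *Enkur* (-0.723) and *Dio2* (-0.583), and among 9 choroid plexus genes *Clic6* (-0.477). The called shares of these lists were 7.69%, 14.29% and 11.11%, and that of the neuronal list was 25%, against 4.82% of all probe sets. The astrocyte differences ran from -0.39 to 0.692, with 6 positive and 7 negative, so no shift of that list is shown. The microglia, endothelial, leptomeningeal and blood lists had 0 calls by limma, with differences of single genes between -0.271 and 0.229, and an unadjusted p below 0.05 was reached by 1 endothelial gene and by 0 genes of the others.

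Each part was also set against the mean of the 10 other hypothalamic regions, a comparison that shares these regions between the parts. In SPa ventral 11545 probe sets (25.6%) were called, and in SPa dorsal 13029 (28.9%). The values separate genes high in one part from genes low in the other. *Vip* was 2.13 above the mean of the other regions in SPa ventral (adjusted p = 1.31e-09) and at -0.769 in SPa dorsal (adjusted p = 0.0125). That mean includes the SCN at 13.74. The remaining regions read 5.84 to 7.28, with SPa dorsal at 6.18 within their range, so *Vip* is not shown to be low there. For *Zfhx3*, SPa ventral was at 0.371 (adjusted p = 0.141) and SPa dorsal at -1.90 (adjusted p = 6.22e-12). *Oxt* was at -0.179 in SPa ventral (adjusted p = 0.356) and at -2.05 in SPa dorsal (adjusted p = 1.22e-17). On the other side *Nr5a1* was 2.28 above the other regions in SPa dorsal (adjusted p = 3.48e-27) and at 0.207 in SPa ventral (adjusted p = 0.0921), and *Gpr149* was at 2.88 and 0.093. *Fezf1* was above them in both parts, by 0.719 in SPa ventral (adjusted p = 1.79e-06) and 2.95 in SPa dorsal (adjusted p = 1.01e-28).

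Despite these genes, the parts were close over the whole array. On linear values, the dissimilarity (1 minus Pearson's r across probe sets, and probe sets are no replicates) between SPa ventral and SPa dorsal was 0.0159, the smallest that either had with any of the other 47 regions. For SPa ventral the next were Pa (0.0205), DM (0.0232) and MPA (0.0298), and for SPa dorsal DM (0.0299), VMH (0.0319) and Pa (0.0344). On log2 values the nearest region of SPa ventral was Pa (0.00834), with SPa dorsal next (0.00835). The dissimilarities are descriptions of region means and carry no test.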

How the data were processed

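RNA pools were hybridised to Affymetrix GeneChip mouse genome arrays and summarised by the authors with RMA, named without a version in the submitters' processing notes. The deposited values are log2 expression values normalized over all arrays. Of 45101 probe sets, 64 controls were used only for the array checks. By the platform annotation 34945 of the 45037 others name 1 gene, 932 several and 9160 none. A gene ID in the RefSeq table (GRCm38.p6) was matched for 34741, and 0 symbols changed.

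SPa ventral was compared with SPa dorsal, and each with the mean of 10 other hypothalamic regions, by limma 3.58.1 (R 4.3.3) with 1 coefficient per region over 96 arrays of 48 regions (retina, pituitary and pineal left out), 48 residual and 6.63 prior degrees of freedom. Calls have a Benjamini-Hochberg adjusted p below 0.05 over all probe sets. With 2 arrays against 2, an exact permutation test cannot reach this threshold and was not used. On simulated data for SPa ventral minus SPa dorsal (8000 probe sets, 50 per size), shifts of 0.5, 1, 2 and 4 were recovered at 74%, 98%, 100% and 100%, with 10 false calls.

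Named genes are, in each direction, the 15 with the largest called differences among probe sets that name 1 gene and whose arrays do not overlap (1 probe set per gene, that of the largest difference), members of the gene lists, and the study's marker candidates for both parts. List genes take the probe set with the highest mean over the 96 arrays. The share of all probe sets beside a list count covers every probe set, and no share over the brightest probe set of each gene was computed. The contrast and the lists were chosen with earlier results of these data known. Alternatives were the 4 arrays alone, the 24 hypothalamic arrays, a replicate block, cyclic loess, a variance trend with robust estimation, a mean of at least 7, leaving out each of the 4 arrays, another choice of list probe set, and other scales for likeness. Cyclic loess and left-out arrays for the list counts were added after seeing the data. Python 3.11.15, pandas 2.3.3, numpy 2.4.6 and matplotlib 3.10.9 were used for tables and figures.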

Additional observations from a re-analysis of the deposited data

Results flagged for a closer look

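Outside the comparisons, the pineal arrays, which the fit leaves out, had a mean *Xist* log2 value of 9.37, above the 5.57 to 6.02 of the 94 arrays of regions other than SPa, VTA and pineal. The 18S rRNA 3′ control, which is not part of the probe sets compared, read 11.45 on the first SPa dorsal array, above the 10.86 that was the highest of the 98 arrays of other regions. The 3′ minus 5′ difference of the β-actin controls was 1.91 and 1.65 on the SPa dorsal arrays, above the 1.55 that was the highest of those 98 arrays, and that of the Gapdh controls was 0.264 on the first SPa ventral array, above their 0.239. None of these signals was followed further, and no cause was tested.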

How the results depend on the processing

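For SPa ventral against SPa dorsal, the 2173 calls became 2930 with the 4 arrays alone, 1837 with the 24 hypothalamic arrays, 2480 after cyclic loess, 2163 with a variance trend and 2245 among probe sets with a mean of at least 7. Leaving out 1 of the 4 arrays in turn gave 880 to 1684 calls, with 339 to 661 higher in SPa ventral and 541 to 1023 higher in SPa dorsal, and the fewest without the first SPa ventral array (880). Calls against the other hypothalamic regions numbered 3841 to 6320 for SPa ventral (3841 without its first array, 6320 without its second) and 5811 to 8155 for SPa dorsal (5811 without its first array, 8155 without its second). The replicate block gave 2152 calls and changed none of the calls of 122 checked genes. The difference between the first and second array of SPa ventral had a correlation of 0.0353 with that of SPa dorsal, across probe sets, which are no replicates. This 1 value cannot show whether same-numbered arrays share a batch, which was not tested. The 30 leading genes kept their direction and their call under each of these alternatives. Of 1203 values of the 122 genes under the alternatives, 1152 kept direction and call, 38 lost the call, 13 gained it and 0 reversed.

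Without 1 array, the lists held 1 to 2 called dorsomedial genes, 1 to 2 arcuate, 0 to 0 preoptic, 1 to 2 oligodendrocyte, 0 to 1 astrocyte, 0 to 3 ependymal and tanycyte, 0 to 0 choroid plexus, 1 to 2 neuronal, 1 to 3 immediate early, 1 to 5 clock, 6 to 8 neuropeptide receptor, 6 to 11 synapse organiser, 5 to 9 potassium channel, 4 to 6 sodium and calcium channel, 1 to 4 GABA-A and glycine receptor, 3 to 4 glutamate receptor, 3 to 5 amine and acetylcholine receptor and 3 to 7 guidance genes. The suprachiasmatic list held 11 to 13, the ventromedial 8 to 8 and the GABAergic 7 to 7. With the list probe set of the largest difference, 10 clock, 11 nuclear receptor, 2 astrocyte and 1 endothelial gene were called. Cyclic loess gave 2 called astrocyte genes and 0 choroid plexus genes. On log2 values SPa dorsal ranked 2 among the regions nearest to SPa ventral. The causes were not tested. The 2 arrays per part limit every call, dim probe sets have compressed differences, and *Xist*, the 3′ and 5′ controls and the region cannot be told apart.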
